A study of Mus musculus with 9 samples.

Results

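The angiopoietin and VEGF pathways were followed in mouse lung as a set of 10 genes, chosen by name from what is known of both pathways and not by their measured values: the ligands Angpt1, Angpt2, Vegfa, Vegfc and Vegfd (also named Figf), the receptors Tek, Tie1, Kdr and Flt1, and the receptor phosphatase Ptprb. They are 10 of the 27203 gene IDs and assembled loci in the transcript table, their level is the FPKM (fragments mapped to a transcript, scaled to its length and to the fragments mapped in the library) summed over the 22 transcript entries that carry their names, and all 10 were above 0 in every library. The libraries are whole-lung RNA-seq from 9 male C57BL/6 mice, 6 to 8 weeks old by the methods of the study. Controls (3 mice) were intubated and not ventilated, and the ventilator-induced lung injury (VILI) groups were ventilated for 4 h at a tidal volume of 20 ml/kg, with lungs taken at the end (VILI 0 hours, 3 mice) or 6 h later (VILI 6 hours, 3 mice). Because controls were not ventilated at any volume, the effect of the tidal volume and that of ventilation itself cannot be told apart, and because the lung was taken whole, fewer cells of a type and less RNA per cell cannot be told apart either.

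Both pathways act on the endothelial cells that line vessels. Angiopoietin 1, made largely by cells outside the endothelium, activates the receptor tyrosine kinase Tie2 (the product of Tek) and keeps vessels quiet and tight, while angiopoietin 2, stored in endothelial cells, can act as its antagonist. VEGF-A signals mainly through VEGFR2 (Kdr), with VEGFR1 (Flt1) as a high-affinity receptor that also exists as a soluble trap, and in the lung much VEGF-A comes from the alveolar epithelium.

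Of the 10 genes, 2 fell and 0 rose at 0 h, and 4 fell and 1 rose at 6 h, each against control at an unadjusted limma P under 0.05, the threshold the study used. Tek, the angiopoietin receptor, was lower at both times. Vegfa fell at 0 h, Angpt1, Angpt2 and Tie1 fell at 6 h, and Flt1 was higher at 6 h. Of all genes tested, 16.2% were called at 0 h (6.81% up, 9.35% down) and 20.4% at 6 h (8.17% up, 12.2% down). With all 9 libraries in the fit, 2 of 10 at 0 h thus lay near the background and 5 of 10 at 6 h above it. None of the 10 passed a Benjamini-Hochberg adjusted p under 0.05 over the 19378 genes tested in any comparison, where 0.284%, 0.702% and 0% of all genes passed at 0 h, at 6 h and between the VILI groups. This changed with the libraries in the fit: with only control and VILI 0 hours, 3 passed at 0 h (Vegfa at a limma adjusted p = 0.00896, Kdr at an adjusted p = 0.0208 and Tek at an adjusted p = 0.027), beside 8.93% of all genes. At the unadjusted threshold 5 of the 10 were called in that fit, beside 26.4% of all genes. With all 9 libraries in the fit, the lowest limma adjusted p among them was 0.112 at 0 h against control, 0.0598 at 6 h against control and 0.253 between the VILI groups.

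Facts of the libraries bear on these values. The FPKM of a library summed to between 366360 and 388459, and the table gives no read counts. Read totals that the study gives per library were not used here. Spearman correlations between libraries of a group were 0.987 to 0.988 in control, 0.978 to 0.984 at VILI 0 hours and 0.944 to 0.973 at VILI 6 hours. The library VILI 6 hours replicate 1 was the closest of its group to control in 6 of the 10 genes, and replicate 3 was the farthest in 7, so results at 6 h are also given without them. Lung identity held: alveolar type 2 markers (9 genes, surfactant genes among them) summed to between 13287 and 16161 FPKM, and the 15 endothelial markers to between 1522 and 2078 FPKM with none at 0 in any library.

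In control lungs the levels spread widely on the FPKM scale, which is per length and so allows genes to be set side by side. Vegfa was highest at 294 ± 15.1 FPKM (SD, n = 3, as for all values below), followed by Ptprb at 185 ± 8.88. Kdr (110 ± 0.751) and Tek (109 ± 6.97) did not differ beyond their spread. Tie1 at 60.9 ± 0.398, Flt1 at 55.4 ± 3.20, Angpt1 at 31.7 ± 3.14, Vegfd at 22.4 ± 2.19, Angpt2 at 8.22 ± 1.29 and Vegfc at 4.45 ± 0.392 FPKM followed, with no overlap between neighbours in that order.

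RefSeq promoter windows (GRCm38.p6) were matched for 7 of the 10 genes. The 250 bases before the start are shown for 3 of the 4 receptors, on the strand of the gene. Matches on either strand to GGAAG, 1 longer form of the ETS core GGAA, are in capitals, since ETS factors such as Erg are known regulators of endothelial genes. Other forms of the core were not counted and stay in lower case, so 0 matches does not mean that a window lacks ETS cores. Tek (chr4:94739039-94739288, plus strand) held 0 matches, Kdr (chr5:75978456-75978705, minus strand) held 1 and Flt1 (chr5:147726012-147726261, minus strand) held 3. The window of the other receptor, Tie1, held 6 and is not printed, since 212 of its bases lie in annotated exons.
Tek: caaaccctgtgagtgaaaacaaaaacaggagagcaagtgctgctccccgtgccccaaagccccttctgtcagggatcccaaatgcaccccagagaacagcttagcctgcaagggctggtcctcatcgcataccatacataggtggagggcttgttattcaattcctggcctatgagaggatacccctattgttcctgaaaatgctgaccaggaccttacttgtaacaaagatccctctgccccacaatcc
Kdr: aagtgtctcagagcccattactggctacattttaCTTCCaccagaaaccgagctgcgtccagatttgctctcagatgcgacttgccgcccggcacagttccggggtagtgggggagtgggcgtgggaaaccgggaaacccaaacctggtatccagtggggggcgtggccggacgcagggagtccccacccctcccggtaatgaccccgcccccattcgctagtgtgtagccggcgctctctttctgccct
Flt1: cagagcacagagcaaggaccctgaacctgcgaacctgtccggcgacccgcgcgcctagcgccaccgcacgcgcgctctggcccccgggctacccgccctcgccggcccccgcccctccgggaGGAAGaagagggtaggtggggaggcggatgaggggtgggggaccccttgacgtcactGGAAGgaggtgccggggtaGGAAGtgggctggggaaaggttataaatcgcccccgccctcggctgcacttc
The form GGAAG occurs in 64.1% of the 32851 windows of the same length. A core of the hypoxia response element (ACGTG or GCGTG, either strand) was matched 0 times in Tek, 2 times in Kdr and 1 time in Flt1, against 38.6% of all windows with at least 1, and the forkhead motif GTAAACA was in none of the windows of the 7 genes, against 3.17% of all. These are matches of letters and describe the windows only.

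**Figure D1:**
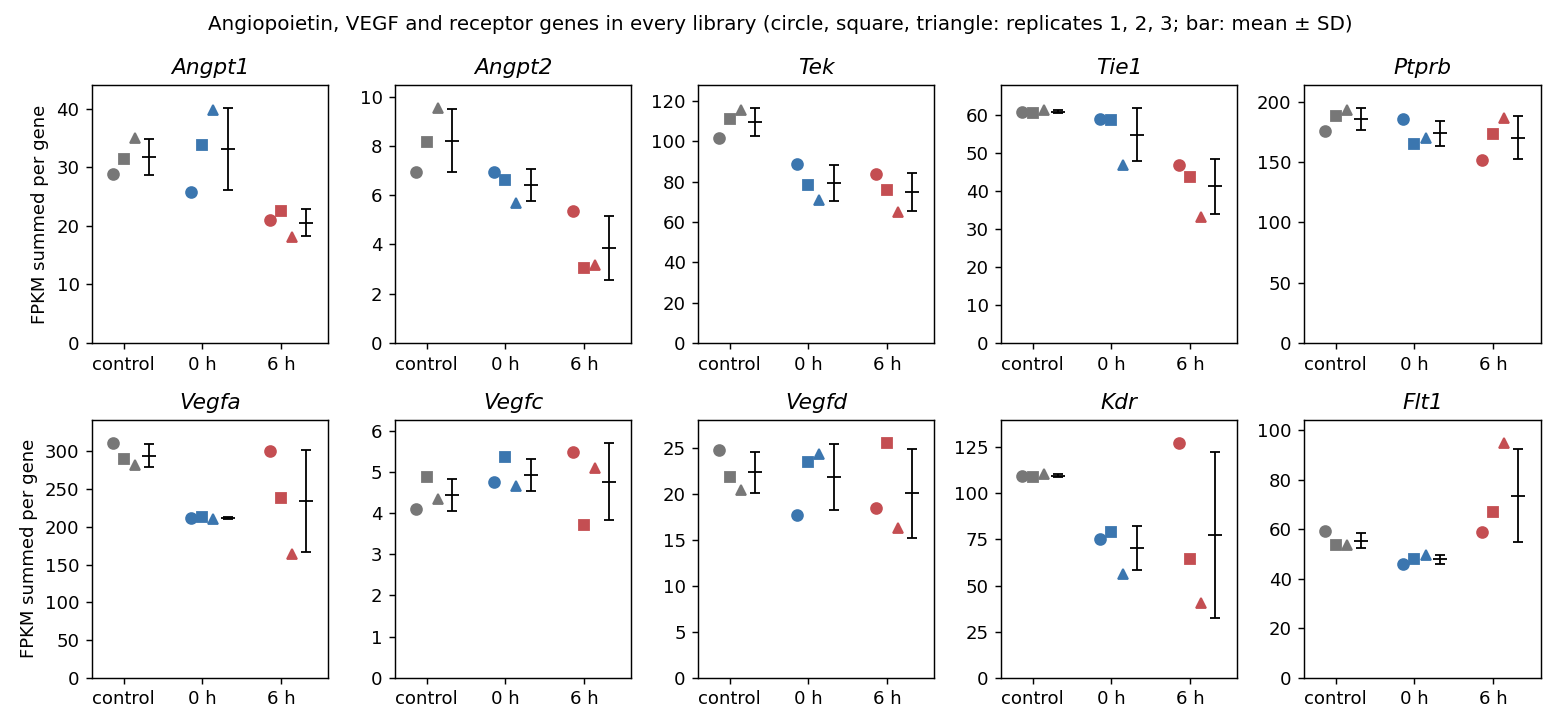
FPKM summed per gene (vertical axes, from 0) in the 3 groups, with 1 point per mouse (circle, square and triangle for replicates 1, 2 and 3) and a bar for the mean ± SD of 3. Tek lies below control in all 6 VILI libraries, Angpt1 is lower at 6 h in all 3, and Kdr, Vegfa and Flt1 spread widely at 6 h.

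Among the ligands of Tie2, Angpt1 (chr15:42424723-42676977, minus strand) held its level at 0 h and was lower at 6 h. Control libraries stood at 28.8, 31.4 and 35.0 FPKM, VILI 0 hours at 25.9, 33.7 and 39.7, and VILI 6 hours at 20.9, 22.6 and 18.1. The 6 h libraries lay below every library of both other groups, while the 0 h libraries spread around control. On the log2(FPKM + 0.1) scale the fold change was 0.04 ± 0.16 (SE) at 0 h (limma adjusted p = 0.923), -0.63 ± 0.16 at 6 h (adjusted p = 0.101) and -0.67 ± 0.16 between the VILI groups (adjusted p = 0.253). The last 2 were called, and at 6 h the level fell by 35.2% from control.

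Angpt2 (chr8:18690263-18741562, minus strand), the context-dependent antagonist, had the largest fitted difference of the 10. Its control values were 6.96, 8.16 and 9.53 FPKM, those at 0 h 6.94, 6.64 and 5.71, and those at 6 h 5.37, 3.03 and 3.17. The groups did not overlap in any of the 3 comparisons, although at 0 h the highest VILI library sat just under the lowest control. Its log2 fold change was -0.34 ± 0.22 at 0 h (limma adjusted p = 0.487, not called), -1.11 ± 0.22 at 6 h (adjusted p = 0.0598) and -0.77 ± 0.22 from 0 h to 6 h (adjusted p = 0.323), the latter 2 called. The difference at 0 h was called in a fit of only the control and VILI 0 hours libraries (adjusted p = 0.169) and without VILI 6 hours replicate 1 (adjusted p = 0.190). At 6 h the level fell by 53.6% from control.

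The ratio of Angpt2 to Angpt1, each summed per gene and divided within a library, was 0.242, 0.260 and 0.272 in control, 0.268, 0.197 and 0.144 at 0 h, and 0.257, 0.134 and 0.175 at 6 h. Replicate 1 of either VILI group lay within the control range and the other libraries lay below it. The difference in log2 ratio was -0.39 at 0 h and -0.50 at 6 h against control (exact two-sided permutation p = 0.3 and 0.2). With 3 libraries against 3, the smallest p this test allows is 0.1, so it could not pass 0.05 and shows neither a shift nor a stable ratio.

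Tek (chr4:94739289-94874976, plus strand), which encodes Tie2, was the only one of the 10 called against control at both times. It was measured at 102, 111 and 116 FPKM in control, 88.5, 78.3 and 70.9 at 0 h, and 83.7, 75.7 and 65.1 at 6 h. All 6 VILI libraries lay below all 3 controls, and the VILI groups overlapped each other. In log2 terms it fell by 0.47 ± 0.12 at 0 h (limma adjusted p = 0.112) and by 0.55 ± 0.12 at 6 h (adjusted p = 0.0716), so that the level fell by 27.7% and by 31.8%. Between 0 h and 6 h it was -0.08, with a 95% interval of -0.36 to 0.19. Of its 3 transcript entries, the second carried 88.6% to 93.3% of the sum in every library and followed the gene.

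Tie1 (chr4:118471191-118490061, minus strand), the orphan receptor that partners Tie2, was lower at 6 h than in either other group. Its values were 60.7, 60.6 and 61.3 FPKM in control, 59.0, 58.7 and 46.8 at 0 h, and 46.8, 43.7 and 33.2 at 6 h. The controls were tight, 2 libraries at 0 h lay just under them, and the third reached the top of the 6 h range. The fitted log2 differences were -0.16 ± 0.14 at 0 h (limma adjusted p = 0.62, not called), -0.58 ± 0.14 at 6 h (adjusted p = 0.0912) and -0.42 ± 0.14 between the VILI groups (adjusted p = 0.393), the latter 2 called.

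The 2 transcript entries of Tie1 moved by different amounts. The smaller one had 9.69, 17.3 and 19.2 FPKM in control, 12.7, 11.9 and 10.8 at 0 h, and 9.90, 3.79 and 2.28 at 6 h, and its log2 fold change at 6 h against control was -1.72 ± 0.48 (called). The larger one was at 45.5 ± 4.84 FPKM in control and 35.9 ± 4.58 at 6 h, a log2 fold change of -0.34 ± 0.15 (called). The table gives no transcript IDs for these entries, so the isoforms are not named, and the difference between the entries was not tested.

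The ratio of Tek to Tie1 was 1.68, 1.83 and 1.88 in control, 1.5, 1.33 and 1.52 at 0 h, and 1.79, 1.73 and 1.96 at 6 h. The 0 h libraries lay below those of both other groups, with a log2 difference of -0.31 to control and of 0.33 from 0 h to 6 h (exact two-sided permutation p = 0.1 for each, the smallest possible, and 0.3 after adjustment over the 9 ratio comparisons). At 6 h the log2 ratio differed from control by 0.025 (exact p = 0.8).

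Ptprb (chr10:116275523-116389535, plus strand), the vascular phosphatase VE-PTP that dephosphorylates Tie2, was not called in any comparison. Control libraries were at 176, 188 and 193 FPKM, VILI 0 hours at 186, 165 and 170, and VILI 6 hours at 151, 173 and 187. The groups overlapped throughout, and the log2 fold changes were -0.10 at 0 h (95% interval -0.33 to 0.13) and -0.13 at 6 h (-0.36 to 0.10).

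Vegfa (chr17:46016993-46032369, minus strand), the main VEGF ligand, was lower and tight at 0 h and scattered at 6 h. It measured 311, 290 and 282 FPKM in control, 211, 213 and 210 at 0 h, and 300, 238 and 164 at 6 h. Every 0 h library was below every control, whereas at 6 h replicate 1 lay inside the control range and replicate 3 fell below the 0 h group. Against control its log2 fold change was -0.47 ± 0.18 at 0 h (called, limma adjusted p = 0.249), when the level fell by 28%, and -0.37 ± 0.18 at 6 h (not called, adjusted p = 0.28). Without control replicate 1 or 2, or without any single 0 h library, the call at 0 h was lost (log2 fold change -0.48 to -0.43). Of 8 transcript entries, entries 1, 4 and 6 held nearly all of the signal, with means of 132, 136 and 25.5 FPKM in control, and their 0 h means of 96.4, 97.3 and 17.5 FPKM were lower in each case. Entry 4 passed the test on its own (log2 fold change -0.48) and entry 1 did not (-0.45).

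The lymphangiogenic ligands did not pass the test in any comparison. Vegfc (chr8:54077606-54187096, plus strand) stood at 4.11, 4.88 and 4.35 FPKM in control, 4.76, 5.37 and 4.65 at 0 h, and 5.49, 3.70 and 5.10 at 6 h. Vegfd (chrX:164373378-164402650, plus strand) stood at 24.8, 21.8 and 20.5 in control, 17.7, 23.5 and 24.4 at 0 h, and 18.5, 25.5 and 16.3 at 6 h. Both overlapped control at either time, with 95% intervals of the log2 fold change at 6 h of -0.30 to 0.46 for Vegfc and -0.59 to 0.24 for Vegfd.

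Kdr (chr5:75932827-75978458, minus strand), the main signalling receptor for VEGF-A, had a wide spread at 6 h. Its levels were 110, 109 and 110 FPKM in control, 75.4, 79.2 and 56.5 at 0 h, and 127, 64.6 and 40.3 at 6 h. All 0 h libraries lay below the controls, while at 6 h replicate 1 was above every control and the other 2 were below. The fitted log2 difference to control was -0.66 ± 0.34 at both times and was not called at either (limma adjusted p = 0.375 at 0 h and 0.29 at 6 h). In a fit of only control and VILI 0 hours, which does not take in the 6 h spread, the same difference at 0 h was called (limma adjusted p = 0.0208), as it was without VILI 6 hours replicate 1 in the fit (adjusted p = 0.0638).

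Flt1 (chr5:147561604-147726011, minus strand) was the only one of the 10 that was called higher at 6 h. It was measured at 59.1, 53.5 and 53.7 FPKM in control, 45.8, 48.0 and 49.6 at 0 h, and 59.0, 66.9 and 94.8 at 6 h. The 0 h libraries were below all others, and at 6 h replicate 1 lay just within the control range with the other 2 above it. Its log2 fold change was -0.21 ± 0.16 at 0 h (limma adjusted p = 0.539, not called), 0.38 ± 0.16 at 6 h (adjusted p = 0.218) and 0.59 ± 0.16 from 0 h to 6 h (adjusted p = 0.284), the latter 2 called. The difference at 0 h was called in a fit of only the control and VILI 0 hours libraries, without VILI 6 hours replicate 3, and for the entry with the highest mean alone. The call at 6 h against control did not hold without VILI 6 hours replicate 3 (log2 fold change 0.18), without control replicate 2 or 3 or VILI 0 hours replicate 2, in a fit of only the control and VILI 6 hours libraries or without a mean-variance trend.

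Most of the spread of Flt1 at 6 h lay in 1 of its 2 transcript entries. The first entry was at 37.3, 33.3 and 33.7 FPKM in control, 27.8, 29.3 and 28.6 at 0 h, and 41.1, 36.3 and 36.2 at 6 h, which is a narrow range at each time. The second was at 21.9, 20.2 and 20.1 in control, 18.0, 18.7 and 21 at 0 h, and 17.9, 30.6 and 58.6 at 6 h. Its share of the gene was thus 37.0% to 37.7% in control and 30.3%, 45.7% and 61.8% at 6 h. The first entry differed between 6 h and 0 h (log2 fold change 0.40 ± 0.09, called) and was at 0.12 against control at 6 h (not called), and the second had log2 fold changes of 0.62 against control and 0.72 against 0 h, neither of them called. The entries carry no transcript IDs, so the soluble and the membrane form cannot be told apart here. Over the 18 entries of the 10 genes with a mean of at least 0.1 FPKM, 3, 6 and 4 were called in the 3 comparisons (0 h against control, 6 h against control, 6 h against 0 h), where 11%, 13.2% and 7.4% of the 37300 entries tested were called.

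The ratio of Flt1 to Kdr was 0.539, 0.491 and 0.486 in control, 0.608, 0.606 and 0.878 at 0 h, and 0.463, 1.04 and 2.35 at 6 h. All 0 h libraries lay above control (log2 difference 0.44, exact two-sided permutation p = 0.1, adjusted p = 0.3), and at 6 h 1 library lay below control and 2 above (log2 difference 1.04, exact p = 0.4).

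**Figure D2:**
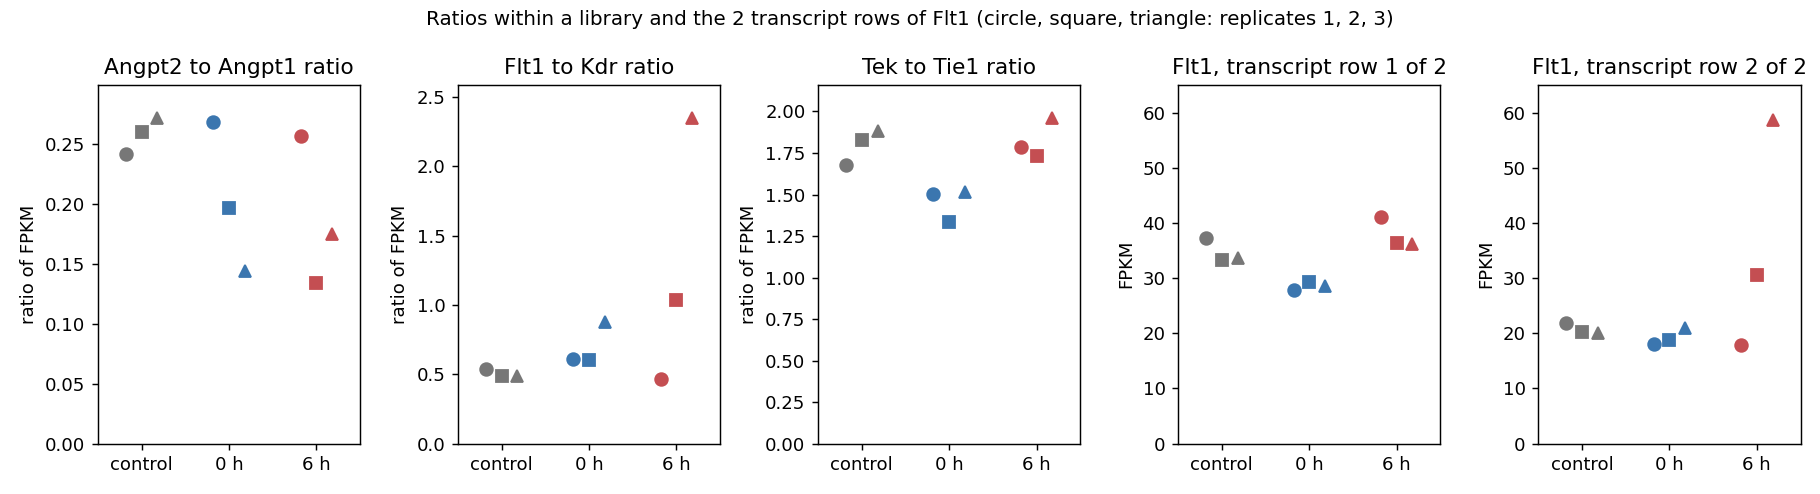
Left to right, the ratio of Angpt2 to Angpt1, of Flt1 to Kdr and of Tek to Tie1 (FPKM divided by FPKM within a library), then the FPKM of the 2 transcript entries (rows) of Flt1, with 1 point per mouse and axes from 0. The Flt1 to Kdr ratio reaches 2.35 in 1 library at 6 h, and the second Flt1 entry reaches 58.6 FPKM in the same library.

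Over the 10 genes, 6 did not overlap control at 0 h, where 33.5% of all genes did not, and 4 did not at 6 h, where 24.6% of all genes did not. The median log2 fold change of the 10 was -0.19 at 0 h and -0.46 at 6 h against control, beside -0.07 and -0.09 over all genes tested, and 8 of the 10 were below 0 at each time. From 0 h to 6 h, 3 fell (Angpt1, Angpt2, Tie1) and 1 rose (Flt1), where 10% of all genes were called (5.06% up, 4.94% down), 3 of the 10 did not overlap against 12.5% of all genes, and the medians were -0.07 and -0.02. The comparisons share libraries, so their values are not independent of each other.

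Each library was left out in turn, and the fits without VILI 6 hours replicate 1 or 3 are given here because they changed calls. Of the VILI 6 hours libraries, replicate 1 lay closest to the control mean in 6 of these 10 genes, so for those genes leaving it out widens the difference by construction. The counts without it are given as a measure of how much 1 library decides and not as support for the calls. Without VILI 6 hours replicate 1, 7 of the 10 were called at 6 h against control and these 7 had a limma adjusted p under 0.05: Angpt2 at a log2 fold change of -1.37, Kdr at -1.10, Tie1 at -0.68, Tek and Angpt1 at -0.64, Vegfa at -0.57 and Flt1 at 0.52. In that fit 38.9% of all genes were called at 6 h and 23.3% had an adjusted p under 0.05. In the same fit 4 of the 10 were called at 0 h against control, 1 of them after adjustment (Tek), beside 23.2% and 6.93% of all genes, and 4 between the VILI groups, 2 of them after adjustment (Angpt2 and Flt1), beside 22.4% and 1.87%. Without VILI 6 hours replicate 3, 4 of the 10 were called at 6 h against control, beside 14.1% of all genes, and 0 passed the adjusted limma threshold. The log2 fold change at 6 h was then -0.27 for Kdr and -0.14 for Vegfa, compared with -0.66 and -0.37 with the library included.

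**Figure D3:**
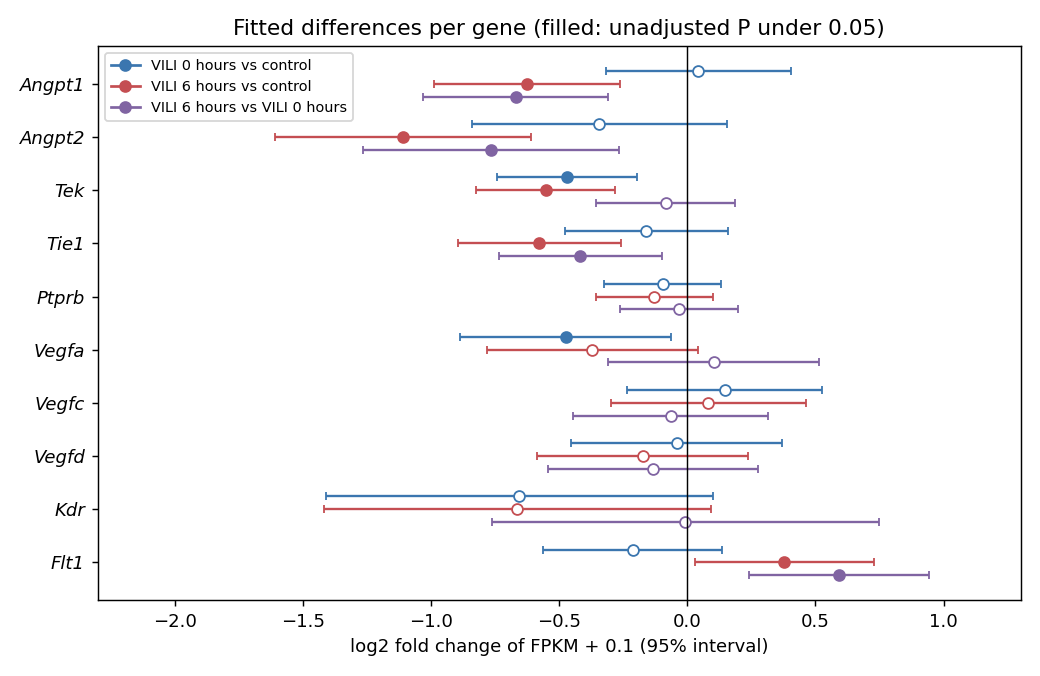
Log2 fold change of each gene on the log2(FPKM + 0.1) scale (horizontal axis) with its 95% interval from the limma fit, for the 3 comparisons by colour. Filled points have an unadjusted P under 0.05: Tek and Vegfa at 0 h and Angpt1, Angpt2, Tek, Tie1 and Flt1 at 6 h, each against control, and Angpt1, Angpt2, Tie1 and Flt1 between the VILI groups.

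The cell types that carry these genes were read from marker lists. Of the 15 endothelial markers, 3 were higher and 3 lower at 0 h, and 2 were higher and 4 lower at 6 h, with a median log2 fold change of 0.16 and 0.15. Without VILI 6 hours replicate 1 the counts were 7 higher and 3 lower at 0 h and 8 higher and 4 lower at 6 h. Their summed level was 1675 to 1739 FPKM in control, 1763 to 2078 at 0 h and 1522 to 2000 at 6 h. The list moved apart within itself: at 6 h Esam, a junction protein, rose (log2 fold change 0.45) and the surface proteins Clec14a (-0.73), Mmrn2 (-0.69) and Emcn (-0.53) fell. At 0 h Adgrl4 rose from 62.8, 65.8 and 64.3 FPKM to 132, 116 and 137, while Mmrn2 (-0.70), Ecscr (-0.59) and Eng (-0.37) fell. Ecscr was also called lower at 6 h. Pecam1 and Cdh5, also of this list, were not called (log2 fold change at 6 h 0.03 and 0.15). With the libraries centred on this list, every call of the 10 genes against control was kept, and Tie1 between the VILI groups was lost (-0.34).

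Markers of other cell types are given beside the 10 genes, and their part in the results was not tested. Their counts stand beside the 16.2% of all genes called at 0 h and 20.4% at 6 h, and their median log2 fold changes beside -0.07 and -0.09 over all genes. Of 5 aerocyte markers (the alveolar capillary cells that express Kdr most strongly), 0 rose and 2 fell at 0 h and 0 rose and 4 fell at 6 h, with sums of 230 to 235 FPKM in control, 224 to 240 at 0 h and 169 to 218 at 6 h. The 4 aerocyte markers lower at 6 h became 2 with median-centred libraries, 1 with libraries centred on the endothelial markers and 1 without VILI 6 hours replicate 3. Of 8 pericyte markers, 0 rose and 1 (Notch3) fell at 0 h, and 0 rose and 3 fell at 6 h, with sums of 153 to 164, 140 to 153 and 125 to 149 FPKM and medians of -0.16 and -0.21. The count at 0 h was no higher than the share of all genes called. The 3 lower at 6 h became 1 with median-centred libraries, and 0 with libraries centred on the endothelial markers or without VILI 6 hours replicate 3. Of 10 fibroblast markers, 1 rose and 3 fell at 0 h and 0 rose and 6 fell at 6 h, with sums of 1913 to 2036, 1516 to 1779 and 1191 to 1588 FPKM. Of 12 neutrophil markers, 9 rose and 1 fell at 0 h and 10 rose and 1 fell at 6 h, with sums of 81.1 to 101, 592 to 1056 and 522 to 2139 FPKM, and Ly6g and Camp were listed at 0 in at least 1 control library and in no VILI library. Within VILI 6 hours the neutrophil sum was 522, 1050 and 2139 FPKM in replicates 1, 2 and 3.

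The remaining lists are given as a description only, and several of their counts moved with the scaling or with the library left out. General capillary markers (5 genes) had 1 higher and 2 lower at 0 h and 0 and 2 at 6 h, with a median log2 fold change of -0.55 and -0.60. Large vessel endothelial markers (6 genes) had 0 and 2, then 0 and 1. Lymphatic endothelial markers (5 genes) had 2 higher and 0 lower, then 1 and 0 (2 and 0 at 6 h with median-centred libraries, 3 and 0 with libraries centred on endothelial markers), with Ccl21a listed at 0 in VILI 6 hours replicate 3 and in no other library. Alveolar type 1 markers (10 genes), of an epithelial cell that makes VEGF-A, had 2 higher and 0 lower, then 2 and 1, with a median log2 fold change of -0.04 and -0.08. Pdpn rose by 0.57 and 0.79 and Hopx by 0.47 and 0.28, Clic5 was lower at 6 h (-0.32), and without VILI 6 hours replicate 1 the counts at 6 h were 1 higher and 3 lower. Alveolar type 2 markers (9 genes) had 2 and 0, then 0 and 1 (1 and 0 at 6 h with median-centred libraries). Alveolar macrophage markers (7 genes) had 4 and 0, then 2 and 0, and the count at 0 h stayed at 4 and 0 under both centrings. Platelet markers (8 genes, platelets being a store of angiopoietin 1) had 0 and 0 at both times, with a median of 0.22 and 0.55. Without VILI 6 hours replicate 1, 6 of the 8 platelet markers were called higher at 6 h (median 0.89), of the large vessel markers 1 was higher and 4 were lower, of the lymphatic markers 3 were higher and 1 was lower, and of the alveolar macrophage markers 4 were higher and 0 lower.

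Among 9 further ligands, receptors and processing factors of the pathways, 1 rose and 2 fell at 0 h and 2 rose and 1 fell at 6 h. These counts, and those of the pathway lists that follow, stand beside the same 16.2% and 20.4% of all genes called. Pgf, placental growth factor, a ligand of Flt1, rose at both times. Its values were 1.62, 1.59 and 1.41 FPKM in control, 2.41, 1.96 and 2.27 at 0 h, and 2.38, 3.30 and 3.06 at 6 h, so no VILI library reached down to control. It rose by 0.49 ± 0.18 at 0 h (limma adjusted p = 0.231) and by 0.87 ± 0.18 at 6 h (adjusted p = 0.0673) on the log2 scale. Nrp2, a coreceptor for VEGF-C, fell at 0 h (-0.64 ± 0.18), when it was at 10.9, 12.6 and 11.1 FPKM beside 18.8, 17.9 and 17.2 in control. Svep1, a matrix protein that binds Tie1, fell at 0 h (-0.60 ± 0.13), and rose from 0 h to 6 h (0.34 ± 0.13). At 6 h Flt4, the receptor of VEGF-C, was higher (0.29) and Nrp1, the coreceptor of Kdr, lower (-0.46), each with groups that overlapped. At 0 h 2 of the 9 were higher and 3 lower without VILI 6 hours replicate 1 or without replicate 3, and 2 and 2 with median-centred libraries. At 6 h 3 of the 9 were higher and 3 lower without replicate 1, and 1 and 1 without replicate 3.

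Of 18 genes of signalling downstream of both receptors, 2 rose and 2 fell at 0 h, and 5 rose and 2 fell at 6 h (4 and 0 with libraries centred on the endothelial markers). Hspb1, a small heat shock protein that is phosphorylated downstream of Kdr and p38, rose from 41.2, 43.3 and 48.9 FPKM in control to 65.9, 64.3 and 90.9 at 0 h and 108, 109 and 177 at 6 h. Its log2 fold change at 6 h was 1.52 ± 0.20, and it was the only gene of the list with a limma adjusted p under 0.05 (0.0217). Nos3, endothelial nitric oxide synthase, was lower at 0 h than in both other groups, with 6.40, 6.21 and 5.43 FPKM in control, 4.11, 4.08 and 3.52 at 0 h, and 5.82, 9.09 and 7.69 at 6 h. It fell at 0 h (-0.61 ± 0.17, limma adjusted p = 0.138) and rose from 0 h to 6 h (0.91 ± 0.17, adjusted p = 0.155). Ptk2, the focal adhesion kinase, was lower at both times (-0.59 and -0.39), and Shb, an adaptor of Kdr, was higher at 6 h than in control (0.61) and at 0 h (0.79).

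Of 10 genes that VEGF is known to induce in endothelial cells, 1 rose and 3 fell at 0 h, and 1 rose and 2 fell at 6 h. Apln, the tip-cell peptide apelin, was 22.2, 21.3 and 22.5 FPKM in control, 9.73, 12.8 and 11 at 0 h, and 14.3, 8.69 and 6.29 at 6 h. No VILI library reached the controls, and the log2 fold change was -0.98 ± 0.25 at 0 h (limma adjusted p = 0.108) and -1.25 ± 0.25 at 6 h (adjusted p = 0.0596). The early response factor Egr3 (-0.997) and the netrin receptor Unc5b (-0.92) fell at 0 h, and Dll4, a Notch ligand, fell at 6 h with overlapping groups (-1.28). The one that rose, Plaur, the urokinase receptor, is also a gene of neutrophils and macrophages, and it went from 13.5, 12 and 13.0 FPKM in control to 26.9, 21.2 and 43.4 at 0 h and 19.9, 26.9 and 45.9 at 6 h. At 6 h 2 of the 10 were higher and 4 lower without VILI 6 hours replicate 1, and 1 and 1 without replicate 3.

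Of 19 known regulators of the 10 genes, 2 rose and 2 fell at each time against control, a share close to the 16.2% and 20.4% of all genes called, so the counts set the list apart at neither time. Its median log2 fold change was -0.03 at 0 h and 0.0073 at 6 h, and the genes below are given for their own values. Sox7, an endothelial transcription factor, fell at both times (-0.81 and -0.95), and Erg, an ETS factor, fell at 6 h against control (-0.33 ± 0.09) and against 0 h (-0.34 ± 0.09). The Erg values were 30.3, 36.6 and 32.5 FPKM in control, 34.3, 34.2 and 31.8 at 0 h, and 26.1, 26.7 and 26.2 at 6 h, a narrow group below all others. Zfp36, which binds AU-rich elements in RNAs such as that of Vegfa and speeds their decay, rose at both times, from 34.6, 30.3 and 31.3 FPKM to 60.7, 73.6 and 117 at 0 h and 40.1, 88.2 and 116 at 6 h. Its relative Zfp36l1 fell at 0 h (-0.49), and Hif1a was not called (0.0075 at 0 h and 0.47 at 6 h). In the fit without VILI 6 hours replicate 1, 5 regulators were higher and 3 lower at 0 h and 5 higher and 5 lower at 6 h, and without replicate 3, 1 and 1 at 6 h.

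Of 13 further targets of the hypoxia response, of which Vegfa is a textbook member, 5 rose and 0 fell at 0 h, and 6 rose and 0 fell at 6 h. Adm, the vessel-tightening peptide adrenomedullin, was 3.87, 2.74 and 2.59 FPKM in control, 10.7, 6.70 and 7.88 at 0 h, and 6.87, 12.6 and 27.0 at 6 h, with log2 fold changes of 1.42 ± 0.42 and 2.1 ± 0.42. Bnip3, a mitophagy receptor, rose at 0 h (1.37 ± 0.30), when Vegfa was lower, and Pfkfb3 rose at 0 h as well (0.996 ± 0.41). Both were also called higher at 6 h, with groups that overlapped. There Bnip3 was at 20.6, 47.7 and 52.8 FPKM and Pfkfb3 at 16.6, 55.5 and 60.0, with replicate 1 of each within or below the control range. Slc2a1, a glucose transporter, rose at both times (0.68 and 0.86), and Ndrg1 rose by 0.75 ± 0.15 at 6 h. The median of the 13 was 0.03 at 0 h and 0.38 at 6 h. Without VILI 6 hours replicate 3, 3 of the 13 were called at 6 h, and without replicate 1, 6 were higher and 1 lower. From 0 h to 6 h Ldha rose (0.46) and Ankrd37, with overlapping groups, fell (-1.36).

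**Figure D4:**
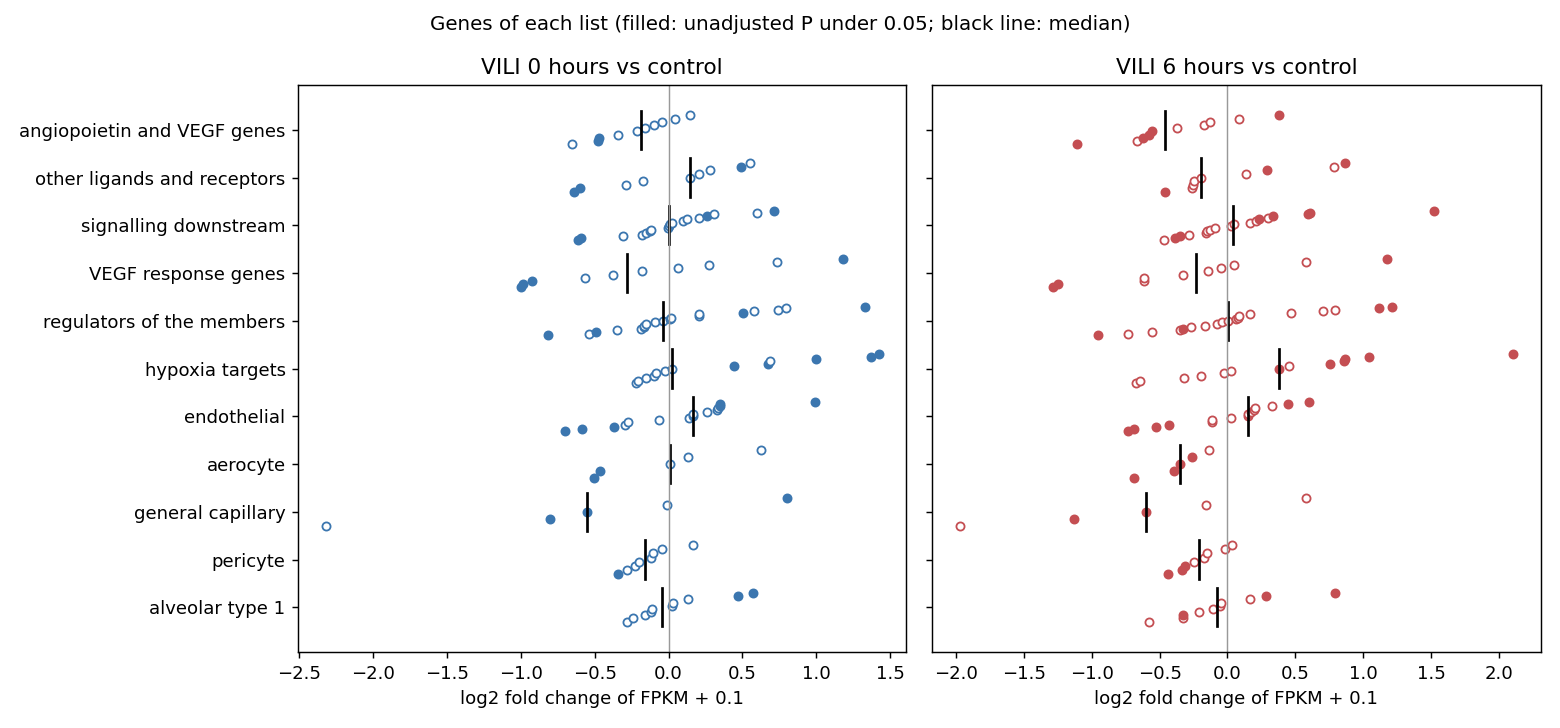
Log2 fold change on the log2(FPKM + 0.1) scale (horizontal axes) at 0 h (left) and 6 h (right) against control for each gene of the lists named at the left, with filled points for an unadjusted P under 0.05 and a black line at the median. At 6 h the median of the 10 angiopoietin and VEGF genes is at -0.46 and that of the hypoxia targets at 0.38.

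For the 6 genes called in any comparison, those with the most similar course over the 9 libraries were found by the root-mean-square distance between centred log2(FPKM + 0.1) profiles among 14107 genes with a mean of at least 1 FPKM. For Vegfa the nearest were Camk2g (distance 0.0445), Myo1e (0.0471) and Cul7 (0.0583), against a spread of 0.292 in Vegfa itself. For Tek they were 2610037D02Rik (0.0606), Il17rd (0.0622) and Mex3d (0.0808), and for Tie1 Rbmx (0.0781), Hvcn1 (0.0842) and Pgap1 (0.0891). For Angpt1 they were Acyp2 (0.0829), Zfp874a (0.1) and Rps6ka5 (0.115), for Angpt2 Ifi208 (0.142), Fmo1 (0.164) and Plscr4 (0.185), and for Flt1 Gm16867 (0.105), Nop58 (0.106) and Gm42633 (0.119). None of the 10 genes was among the 3 nearest of these 6.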

How the data were processed

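Whole-lung RNA was sequenced in 9 libraries, 3 per group and 1 mouse each, grouped by their labels. The deposited table holds FPKM per transcript, which the authors made by removing adapter and low-quality reads, aligning to GRCm38 with TopHat2 2.0.9 (Bowtie2 2.0.6), assembling with Cufflinks and Scripture and quantifying with Cuffdiff 2.1.1. The annotation release is not given in the sources used here, and the labels and the methods of the study name different library kits and sequencers. FPKM carry no counts and the read totals of the study were not used here, so no counting interval is given.

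FPKM were summed per gene ID (60108 entries, 27203 IDs and loci). Of 23713 Ensembl IDs, 23503 matched GENCODE M21 for symbols and positions. Genes with a mean of at least 0.1 FPKM were fitted on log2(FPKM + 0.1) with limma 3.58.1 (R 4.3.3, eBayes with trend, all 9 libraries, group only), called at an unadjusted P under 0.05, with Benjamini-Hochberg adjusted p over all genes tested beside it. Fold changes of low genes are understated on this scale. The P-values rest on a spread between mice within groups that is pooled over every group in the fit and moderated across genes. Those of 0 h against control thus also depend on the spread of the 6 h mice. On simulated data for 6 h against control, 66% of changes of 0.5 and 91% of changes of 1 on the log2 scale were called, and 5.06% of unchanged genes. The simulation gave each gene the same spread in every group and changed only genes above a set mean level. Real VILI 6 hours libraries were more spread than the other groups, so these shares need not hold for that comparison. Ratios were tested by exact permutation (scipy 1.17.1). From each list, at most 4 genes per comparison with non-overlapping groups were named by size of change, and others were chosen after their values were seen. The genes, lists and tests were chosen with earlier results of these data known. Alternatives tried were pseudocounts of 0.01 and 1, other filters on low values, 2 centrings, only the libraries compared, a replicate block, no trend, 1 transcript entry per gene, and each library left out.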

Additional observations from a re-analysis of the deposited data

Results flagged for a closer look

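The difference between the effects of VILI at 6 h and at 0 h, each against the same controls, was tested as the contrast of VILI 6 hours with VILI 0 hours, and these genes passed an unadjusted limma P under 0.05 with no adjusted p under 0.05. Among the angiopoietin and VEGF genes the log2 difference was -0.67 for Angpt1, -0.77 for Angpt2, -0.42 for Tie1 and 0.59 for Flt1. Among signalling genes it was 0.81 for Hspb1, 0.91 for Nos3 and 0.79 for Shb, with Akt1 (0.21) and Tnip2 (0.50) called with groups that overlapped, and for the matrix protein Svep1 it was 0.34. Among regulators and hypoxia targets it was -0.44 for Ets2, -0.34 for Erg and 0.46 for Ldha. The hypoxia target Ankrd37 was also called (-1.36), with groups that overlapped. Among the endothelial and pericyte markers it was 0.54 for Eng and -0.88 for Emcn, both endothelial, and -0.32 for Ndufa4l2, a pericyte marker. The endothelial marker Clec14a was called as well (-0.46), with groups that overlapped. Markers of other cell types were called between the VILI groups too: 0 higher and 3 lower of the fibroblast list, 0 and 2 each of the aerocyte, large vessel and alveolar macrophage lists, and 1 and 0 of the platelet list, beside 10% of all genes. Without VILI 6 hours replicate 1 the platelet list had 6 higher and 0 lower, the neutrophil list went from 0 and 0 to 5 and 1, and the regulators from 0 and 2 to 4 and 3, beside 22.4% of all genes. In that fit the hypoxia targets went from 1 and 1 to 4 and 2, the VEGF response genes from 0 and 0 to 1 and 3, and the alveolar type 2 markers from 0 and 0 to 0 and 3.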

How the results depend on the processing

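The number of the 10 genes called at 0 h against control was 2, and 5 with only the 6 libraries compared in the fit (beside 26.4% of all genes), 3 with 1 transcript entry per gene and 1 to 4 with any 1 library left out. At 6 h against control it was 5, and 4 to 7 with 1 library left out. Between the VILI groups it was 4, and 3 to 5. Transcript entries called were 2 to 6 at 0 h, 4 to 10 at 6 h and 3 to 6 between VILI groups with 1 library left out. Genes called in all were 1978 to 4495, 2540 to 7540 and 1406 to 4353 with 1 library left out, and 5076 at 0 h and 1196 between VILI groups with only the libraries compared. Of the fits with 1 library left out, that without VILI 6 hours replicate 1 called the most genes in each comparison.

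The log2 ratio of Angpt2 to Angpt1 between the VILI groups ranged from -0.36 to 0.11, and that of Tek to Tie1 at 6 h against control from -0.028 to 0.062, with 1 library left out, and the latter was -0.22 with 1 entry per gene. Fold changes near 0 changed sign: with libraries centred on endothelial markers, Angpt1 at 0 h (-0.010) and, between VILI groups, Ptprb (0.044), Vegfc (0.011) and Kdr (0.068), and with median-centred libraries Vegfd at 0 h (0.024) and Kdr between VILI groups (0.0065). With 1 library left out, sign changes lay within -0.10 to 0.21 for Angpt1 and -0.13 to 0.10 for Vegfd at 0 h, -0.029 to 0.25 for Vegfc at 6 h, and, between VILI groups, -0.17 to 0.013 for Tek, -0.10 to 0.051 for Ptprb, -0.10 to 0.34 for Vegfa, -0.17 to 0.10 for Vegfc, -0.32 to 0.0040 for Vegfd and -0.45 to 0.38 for Kdr. The cause was not tested.

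Of genes called, 42.1%, 40.1% and 50.6% were higher in the 3 comparisons, 51.8%, 50.8% and 51.5% with median-centred libraries, and 39.5%, 56.8% and 74.5% with libraries centred on endothelial markers. Replicate numbers did not pair the mice, and with the replicate number as a block the counts of the 10 genes stayed at 2, 5 and 4. The list genes named for a call with non-overlapping groups kept their direction under every alternative run on them, and lost the call in 64 of the values with 1 library left out and in 32 of the others. Precision is limited by 3 mice per group, and depth was not analysed here.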
